A study of Mus musculus with 8 samples.

Results

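The collagen genes form a family of secreted triple-helical matrix proteins, and every gene whose symbol has the form of a collagen alpha chain (Col, a type number, a, a chain number) was taken from the array. This gave 42 chains among 18193 genes, each read from the probe set (a group of short DNA probes for 1 transcript) with the highest mean log2 signal over the 8 arrays. They were grouped as 7 cartilage chains (types II, IX, X and XI), 8 other fibrillar chains, 8 basement membrane chains and 19 further chains. Of these, 38 lay at or above the filter on dim probe sets and were tested, and 4 lay under it (Col10a1, Col17a1, Col6a4 and Col6a5). Col6a6, Col21a1 and Col28a1 were not analysed here.

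The samples were mouse organ of Corti, the strip of sensory and supporting cells in the cochlea, taken at postnatal day 16 and divided into an apical part, which serves low frequencies, and a basal part, which serves high frequencies. Mice of both genotypes carried Atoh1-Cre (Tg(Atoh1-cre)1Bfri), a transgene that recombines floxed DNA in hair cells, together with the floxed allele Dicer1tm1Bdh. Conditional knockouts (cKO, Atoh1-Cre;Dicer1(flox/flox)) had 2 floxed alleles of Dicer1, the gene of the enzyme that matures microRNAs, and littermate controls (Atoh1-Cre;Dicer1(flox/wt)) had 1 floxed and 1 wild-type allele, so no group was free of Cre. Genotype and region gave 4 groups of 2 samples, called control apex, cKO apex, control base and cKO base, and a sample pooled that segment from both ears of 1 mouse. The apical and basal samples of 1 genotype with the same replicate number were taken as 1 presumed mouse, 4 in all. The deposited values were scaled to a common trimmed mean, and median signals ran from 67.3 to 100.4 per array. Precision is limited by the small number of arrays.

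Collagen chains wind around each other into a triple helix, after which fibrillar types are trimmed and packed into fibrils and network types such as type IV form sheets. Type II collagen is the main fibril of cartilage and also of the tectorial membrane and other acellular layers of the cochlea, type XI sits in the core of these fibrils and type IX on their surface. Loss of type II, type IX or type XI chains, and of the type IV chains Col4a3, Col4a4 and Col4a5, is known to impair hearing.

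Marker genes were read to describe the cells in the dissected tissue. Of the hair cell markers on the array, 4 of 6 passed the filter (Atoh1 and Slc26a5, the outer hair cell motor, lay under it), and 7 of 8 supporting cell markers passed. Markers of cartilage cells (7 of 9), bone (8 of 8) and the stria vascularis, the ion-pumping tissue of the lateral wall (8 of 9), passed as well. Of all genes, 13221 of 18193 passed, so these counts alone do not show which tissues the samples held. In such bulk samples, fewer cells of a type and less RNA per cell cannot be told apart. Control base replicate 1 stood apart in strial transcripts: Dct, a pigment cell enzyme, had a log2 signal of 5.96 there and at least 13.65 in the other 3 basal samples. The summed signal of the strial list was 19920 in that sample, against 48350 to 54540 in the other basal samples and 20850 to 26840 in the apex. The differences of several chains, of Loxl1 and of the gene lists are given with and without this sample.

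Promoter windows, the 250 bases before an annotated start in RefSeq on GRCm38.p6, are shown for the 3 chains that passed the test between base and apex and for Col8a2, the chain with the largest difference. They matched 33 of the 42 chains, in 36 windows. A TATA box was searched as TATAAA. A GC box, which binds SP1-type factors, was searched as GGGCGG. For SOX-type factors the searched letters were ACAAAG. Both strands were searched, matches are in capitals, and each sequence is written 5′ to 3′ on the gene's strand. The windows lie on the + strand at chr17:34038888-34039137 (Col11a2), chr4:121039316-121039565 (Col9a2), chr1:45311288-45311537 (Col3a1) and chr4:126286544-126286793 (Col8a2).
Col11a2: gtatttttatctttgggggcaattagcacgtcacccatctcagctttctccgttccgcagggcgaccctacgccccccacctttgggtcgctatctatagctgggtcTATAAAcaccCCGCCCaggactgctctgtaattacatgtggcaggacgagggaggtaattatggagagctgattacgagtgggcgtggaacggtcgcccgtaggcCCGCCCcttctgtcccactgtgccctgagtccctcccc
Col9a2: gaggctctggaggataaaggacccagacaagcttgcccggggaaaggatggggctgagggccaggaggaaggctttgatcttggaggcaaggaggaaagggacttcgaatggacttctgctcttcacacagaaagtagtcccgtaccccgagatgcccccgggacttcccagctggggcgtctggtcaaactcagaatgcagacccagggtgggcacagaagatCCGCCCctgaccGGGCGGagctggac
Col3a1: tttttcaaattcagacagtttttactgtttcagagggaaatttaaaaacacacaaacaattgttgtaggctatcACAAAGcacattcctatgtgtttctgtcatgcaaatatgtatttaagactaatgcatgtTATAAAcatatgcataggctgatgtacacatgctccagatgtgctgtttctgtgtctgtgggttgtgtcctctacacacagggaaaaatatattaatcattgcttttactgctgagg
Col8a2: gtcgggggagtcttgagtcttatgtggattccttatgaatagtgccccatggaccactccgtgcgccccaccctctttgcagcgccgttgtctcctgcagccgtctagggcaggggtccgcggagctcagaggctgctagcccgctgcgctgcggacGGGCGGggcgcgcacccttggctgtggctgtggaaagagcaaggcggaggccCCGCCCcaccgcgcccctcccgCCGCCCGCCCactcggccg
The 4 windows differed in composition. G and C made up 57.6% of the Col11a2 window, 60.4% of that of Col9a2, 35.2% of that of Col3a1 and 70.0% of that of Col8a2, where the median over all windows was 52.4%. GC box letters occurred 4 times before Col8a2, the last pair overlapping, and 2 times each before Col11a2 and Col9a2. TATA box letters occurred once each before Col11a2 and Col3a1, and the SOX-type letters only before Col3a1 among the 4. Of all 32851 windows, 32.7% held the GC box letters, 12.4% the TATA box letters and 16.5% the SOX-type letters. Of the 36 collagen windows, 21, 5 and 3 held them. A match describes the letters and does not show a binding site.

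The first comparison was between base and apex, with both genotypes averaged. All 6 tested cartilage chains had a positive difference; Col11a2 and Col9a2 passed the test and were higher in the base, and the other 4 did not pass. Of the fibrillar chains, Col3a1 passed. In all, limma called 3 of 38 chains higher in the base and 0 lower at an adjusted p under 0.05, where 0.59% of all 13221 genes tested were called higher and 0.598% lower (1.19% in either direction). At an unadjusted p under 0.05 there were 17 chains higher and 2 lower, against 8.66% and 8.54% of all genes. The difference was above 0 for 29 of 38 chains and for 47.4% of all genes, and its median was 0.55 (log2) over the chains and -0.02 over all genes. By class the median was 0.83 for cartilage, 0.42 for fibrillar, 0.35 for basement membrane and 0.24 for the further chains.

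**Figure D1:**
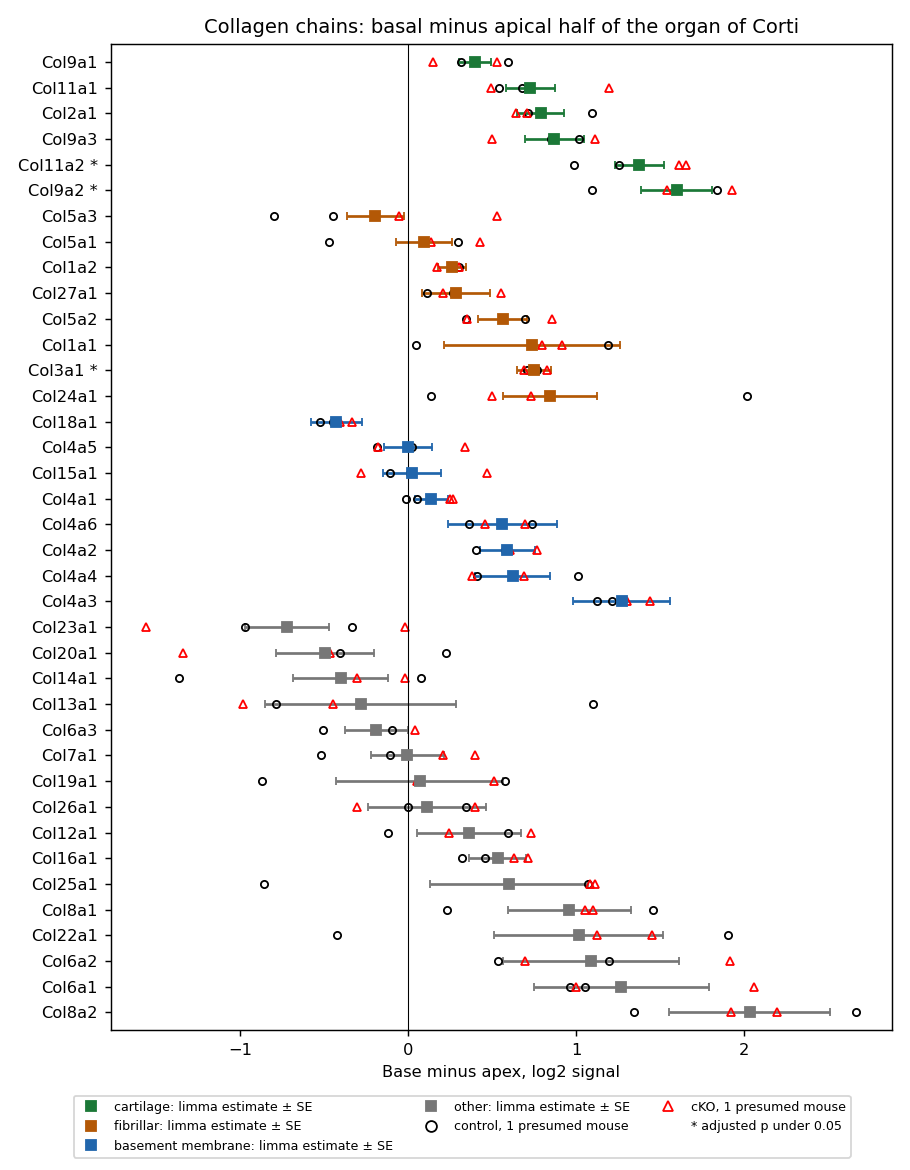
Base minus apex (log2 signal, x axis) for the 38 tested collagen chains, grouped by class and ordered within it. Squares with bars are limma's estimate ± SE over both genotypes, open circles and triangles are the 4 presumed mice, and an asterisk marks the 3 chains with an adjusted p under 0.05. All 6 cartilage chains at the top lie right of 0 in every mouse, while the further chains at the bottom spread to both sides.

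Col11a2, which encodes the alpha 2 chain of the thin fibril collagen type XI, was the chain of smallest p. Its log2 signal in replicates 1 and 2 was 10.56 and 11.05 in control apex and 10.58 and 10.85 in cKO apex, against 11.81 and 12.03 in control base and 12.23 and 12.46 in cKO base. Every basal sample lay above every apical one. The difference was 1.38 ± 0.15 (log2, SE), or 2.59-fold, with an adjusted p of 0.0164.

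Col9a2, a chain of the fibril-surface collagen type IX, showed the largest difference among cartilage chains. It was at 10.50 and 11.49 in control apex, 11.21 and 11.03 in cKO apex, 12.34 and 12.59 in control base, and 12.75 and 12.96 in cKO base. The groups again did not overlap, and the base was 3.03-fold higher (1.60 ± 0.21, adjusted p = 0.0289).

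The other cartilage chains missed the adjusted threshold. Col2a1, the single chain of type II collagen, was at 12.70 and 13.33 in control apex, 13.49 and 13.48 in cKO apex, 13.80 and 14.04 in control base, and 14.20 and 14.12 in cKO base. No apical sample reached a basal one, and the difference was 0.79 ± 0.14 (1.73-fold, adjusted p = 0.0522). Col11a1, the alpha 1 chain of type XI, was at 12.78 and 13.07 in control apex, 12.73 and 13.35 in cKO apex, 13.45 and 13.61 in control base, and 13.92 and 13.84 in cKO base. Col9a3, the third chain of type IX, was at 12.36 and 12.79 in control apex, 12.65 and 13.11 in cKO apex, 13.21 and 13.80 in control base, and 13.76 and 13.61 in cKO base. Neither Col11a1 (0.73 ± 0.15) nor Col9a3 (0.87 ± 0.18) overlapped between regions, and both had an adjusted p of 0.0651. Col9a1, the remaining type IX chain, had the smallest difference of the class, 0.39 ± 0.10 (adjusted p = 0.0996). Its values were 13.82 and 14.12 in control apex, 14.26 and 14.46 in cKO apex, 14.41 and 14.43 in control base, and 14.79 and 14.61 in cKO base, so that the upper cKO apical sample exceeded both control basal ones. Within each presumed mouse, the base was higher for all 6 chains.

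Col9a1 had 2 probe sets, and the one of lower mean, not used above, gave another size. That probe set was 2.87-fold higher in the base (1.52 ± 0.33, adjusted p = 0.102 with every probe set fitted on its own). Col9a1 has 2 annotated starts, 17593 bases apart in the RefSeq table. Col10a1, the collagen of hypertrophic cartilage, lay under the filter in every sample, with log2 signals of 4.60 and 1.18 in control apex, 2.72 and 3.36 in cKO apex, 2.08 and 2.76 in control base, and 1.85 and 0.78 in cKO base. No direction was read from such values.

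**Figure D2:**
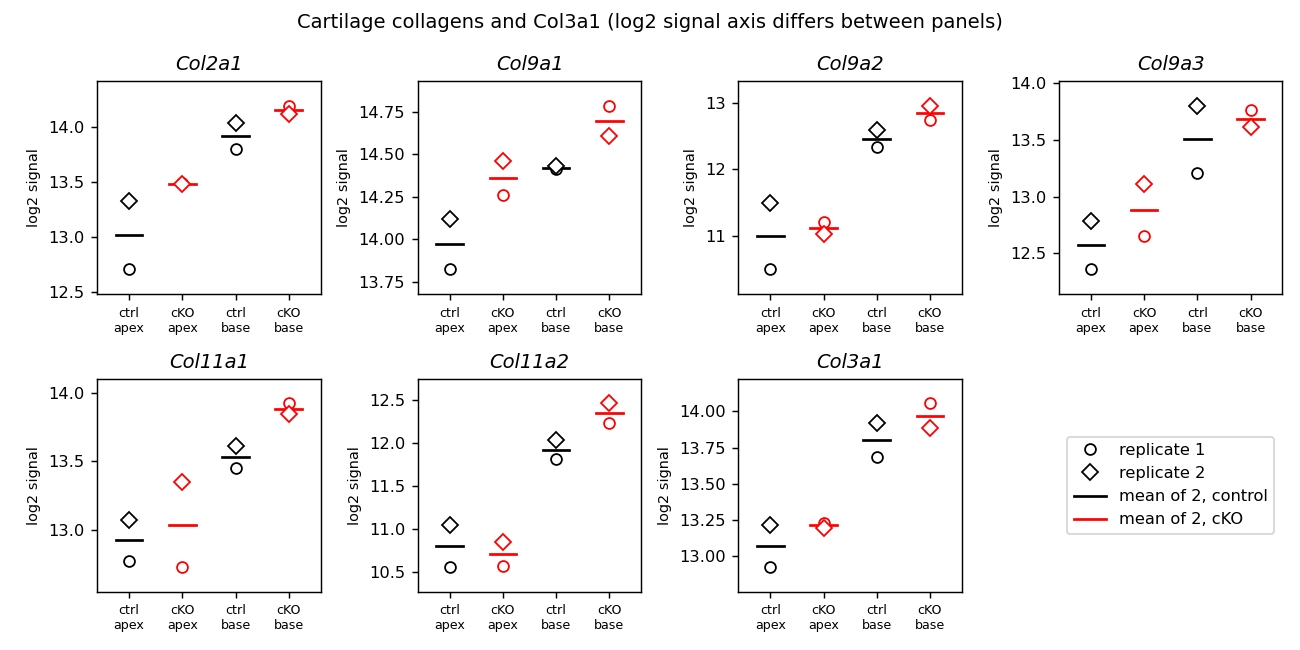
Log2 signal (y axis, a different range in each panel) of the 6 tested cartilage chains and Col3a1 in the 4 groups, with 1 point per sample and a bar at the mean of 2. For every chain but Col9a1 the 4 basal samples lie above the 4 apical samples.

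Among the fibrillar chains, which build the fibrils of bone, skin and connective tissue, 7 of 8 differences were above 0. Col3a1, the single chain of type III collagen of pliable connective tissue, was at 12.92 and 13.21 in control apex, 13.23 and 13.19 in cKO apex, 13.69 and 13.92 in control base, and 14.06 and 13.88 in cKO base. Base and apex did not overlap, and the base was 1.68-fold higher (0.75 ± 0.10, adjusted p = 0.0292). Its second probe set gave 1.23 ± 0.18 (adjusted p = 0.0416 with every probe set fitted on its own).

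Of the chains of type I collagen, the main collagen of bone, Col1a1 varied widely between samples and the probe set used for Col1a2 did not. The other Col1a2 probe sets ran from 12.53 to 14.04 and from 5.39 to 8.11. Col1a1 was at 8.95 and 10.16 in control apex, 10.56 and 8.83 in cKO apex, 10.14 and 10.20 in control base, and 11.48 and 9.63 in cKO base, with a difference of 0.74 ± 0.53 (adjusted p = 0.512). The regions overlapped widely, although each mouse was higher in the base. Leaving out 1 sample moved this difference to between 0.27 (without cKO base replicate 1) and 1.20 (without cKO base replicate 2), and a second probe set gave 1.82 ± 0.80. Col1a2 was at 13.89 and 13.92 in control apex, 14.19 and 14.05 in cKO apex, 14.15 and 14.23 in control base, and 14.50 and 14.23 in cKO base, with a difference of 0.26 ± 0.08 (adjusted p = 0.193), while its other probe sets gave 0.69 ± 0.19 and 0.35 ± 0.55. Col5a2, which co-assembles with type I in type V fibrils, gave 0.56 ± 0.15 (adjusted p = 0.123), from 11.65 to 12.14 in the apex to 12.35 to 12.93 in the base. Col24a1 gave 0.84 ± 0.28 (adjusted p = 0.197), with its highest basal sample, control replicate 2, at 9.06 and the other 3 from 8.08 to 8.28, against 7.05 to 7.96 in the apex. The remaining fibrillar chains gave 0.28 ± 0.20 (Col27a1), 0.10 ± 0.17 (Col5a1) and -0.20 ± 0.17 (Col5a3), and none of them passed. The probe sets of Col27a1 and of Col5a1 differed in sign.

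None of the 8 basement membrane chains passed, and their differences varied in size and sign. The 6 type IV chains form separate networks: Col4a1 with Col4a2 in nearly every basement membrane, Col4a3 with Col4a4 and Col4a5 in kidney, cochlea and other specialised sites, and Col4a5 with Col4a6. Col4a3 was at 8.84 and 9.92 in control apex, 9.65 and 9.77 in cKO apex, 10.05 and 11.04 in control base, and 11.09 and 11.08 in cKO base. Every basal sample exceeded every apical one, but control base replicate 1 by little, and the difference was 1.27 ± 0.29 (2.41-fold, adjusted p = 0.0849). Its second probe set gave 1.24 ± 0.27. Its partner Col4a4 was at 10.81 and 11.23 in control apex, 11.58 and 11.51 in cKO apex, 11.22 and 12.23 in control base, and 11.96 and 12.20 in cKO base, with a difference of 0.62 ± 0.22 (adjusted p = 0.226). Here control base replicate 1 fell within the apical range.

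Col4a5, the third chain of that network, had a difference near 0: its values ran from 11.44 to 11.60 in the apex and from 11.26 to 11.86 in the base. The difference was -0.0014 ± 0.14 (adjusted p = 0.997), and its sign changed with the setting, its second probe set giving 0.10 ± 0.16. Col4a6 gave 0.56 ± 0.32 (adjusted p = 0.425), between 6.03 and 6.85 in the apex and between 6.39 and 7.58 in the base. Of the general pair, Col4a1 was between 12.14 and 12.33 in the apex and between 12.26 and 12.58 in the base (0.14 ± 0.10, adjusted p = 0.503), while its second probe set gave 0.66 ± 0.24. Col4a2 was at 10.64 and 11.18 in control apex, 10.89 and 11.04 in cKO apex, 11.22 and 11.59 in control base, and 11.50 and 11.81 in cKO base, with a difference of 0.59 ± 0.16 (adjusted p = 0.141). The annotated starts of Col4a1 and Col4a2 lie 21 bases apart on opposite strands. Of the chains whose fragments inhibit vessel growth, Col18a1 was lower in the base in every mouse (-0.43 ± 0.15, adjusted p = 0.219), from 9.59 to 9.97 in the apex and from 9.06 to 9.63 in the base, and Col15a1 gave 0.02 ± 0.17.

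The further chains held the largest difference and none that passed. Col8a2, a chain of the network collagen type VIII of vessels and cornea, was at 6.95 and 7.78 in control apex and 7.91 and 7.35 in cKO apex, against 8.29 and 10.45 in control base and 10.10 and 9.26 in cKO base. The regions did not overlap, with a difference of 2.03 ± 0.48 (4.09-fold, adjusted p = 0.0942). Its partner Col8a1 was at 11.95 and 12.58 in control apex, 12.72 and 12.69 in cKO apex, 12.19 and 14.04 in control base, and 13.77 and 13.79 in cKO base. Control base replicate 1 lay below 3 of the 4 apical samples, and the difference was 0.96 ± 0.37 (adjusted p = 0.243).

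Type VI collagen, a beaded filament around cells, had chains with unlike differences, none of which passed. Col6a1 was at 7.36 and 9.05 in control apex, 8.82 and 7.55 in cKO apex, 8.32 and 10.11 in control base, and 9.82 and 9.61 in cKO base (1.27 ± 0.52, adjusted p = 0.273). Col6a2 followed a like order of samples, at 7.53 and 9.56 in control apex, 9.35 and 8.01 in cKO apex, 8.73 and 10.09 in control base, and 10.05 and 9.92 in cKO base (1.08 ± 0.52, adjusted p = 0.345). Both were higher in the base in every mouse although the regions overlapped. Col6a3 was between 8.20 and 8.70 in the apex and between 8.10 and 8.72 in the base, with a difference of -0.19 ± 0.19 (adjusted p = 0.637). Col16a1, a fibril-associated chain, gave 0.53 ± 0.17 without overlap (9.54 to 9.99 in the apex, 10.06 to 10.71 in the base, adjusted p = 0.184). Col23a1, a transmembrane collagen, was lower in the base in every mouse (-0.72 ± 0.25, adjusted p = 0.206), at 9.64 and 9.73 in control apex, 10.61 and 9.77 in cKO apex, 9.31 and 8.76 in control base, and 9.05 and 9.75 in cKO base. Col22a1 (1.01 ± 0.50), Col25a1 (0.60 ± 0.47), Col12a1 (0.36 ± 0.31), Col26a1 (0.11 ± 0.35) and Col19a1 (0.07 ± 0.50) had differences above 0. Col20a1 (-0.50 ± 0.29), Col14a1 (-0.40 ± 0.28), Col13a1 (-0.28 ± 0.57) and Col7a1 (-0.0064 ± 0.22) had differences below 0.

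Over all 38 chains, 12 had every basal sample above every apical one, which 5.96% of all genes did, and 0 had every basal sample below, which 6.4% of all genes did. The 12 were 5 of 6 cartilage, 3 of 8 fibrillar (Col3a1, Col5a2 and Col24a1), 2 of 8 basement membrane (Col4a2 and Col4a3) and 2 of 16 further chains (Col8a2 and Col16a1). In all 4 presumed mice 21 chains were higher in the base, against 16.0% of all genes, and Col18a1 and Col23a1 were lower, against 17.0%. Of 21 chains with more than 1 probe set above the filter, 18 had probe sets of 1 sign, and Col27a1, Col4a5 and Col5a1 did not. The size depended on the probe set in several chains: other probe sets gave 0.50 ± 0.26 for Col9a3, 0.29 ± 0.13 for Col5a2, 0.67 ± 0.27 for Col6a2, -0.92 ± 0.32 for Col18a1 and -0.07 ± 0.28 for Col14a1. They gave 0.35 ± 0.24 and 0.49 ± 0.23 for Col4a4, 1.51 ± 0.48 and 1.49 ± 0.66 for Col8a1, 0.25 ± 0.22 and 1.27 ± 0.39 for Col22a1, and -0.48 ± 0.23 and -0.96 ± 0.18 for Col23a1. None of these probe sets passed.

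Apical and basal samples of 1 number and genotype were presumed, not stated, to come from 1 mouse, and the fit with the presumed mouse as a block called more chains. It called 8 higher: Col11a2, Col9a2, Col3a1, Col2a1, Col9a3, Col4a3, Col8a2 and Col6a1, with adjusted p from 0.0184 to 0.0440 (limma). Counted in either direction, this fit called 255 of the 13221 genes tested. The calls without the block rested on few samples. Those of Col11a2 and Col9a2 were lost without any 1 of the 4 cKO samples (adjusted p from 0.0794 to 0.127). That of Col3a1 was lost without any 1 of the 4 cKO samples or either control apical sample (adjusted p from 0.0882 to 0.148). All 3 differences kept their direction in each of these fits.

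Control base replicate 1, the sample low in strial transcripts, did not rank all chains alike. There the log2 signals of Col11a2, Col9a2, Col2a1, Col11a1, Col9a3 and Col3a1 still lay above every apical sample, and Col9a1 lay within the apical range. Col8a1, Col4a4, Col6a1 and Col6a2 lay within the apical range in it. Col25a1, a transmembrane collagen, was at 7.44 there, below every apical sample (8.30 to 8.83), and from 9.72 to 9.94 in the other 3 basal samples.

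Leaving this sample out left 1 control basal sample, which was assumed to vary like the other groups, so only differences are given here. They were above 0 for 30 of 38 chains and for 6354 of 13221 genes, with a median of 0.53 over the chains. Col11a2 gave 1.43, Col9a2 1.66 and Col3a1 0.80. Of the chains named above as within the apical range in this sample, Col8a1 gave 1.42, Col4a4 0.88, Col6a1 1.71, Col6a2 1.43 and Col9a1 0.40. Col14a1, a fibril-associated chain, gave -0.75, with its lowest value, 9.47, in control base replicate 2. The difference of Col25a1 was 1.21 without the sample, against 0.60 ± 0.47 with it. By class the median was then 0.93 for cartilage, 0.44 for fibrillar, 0.21 for basement membrane and 0.46 for the further chains. The part of strial tissue in these results was not tested.

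**Figure D3:**
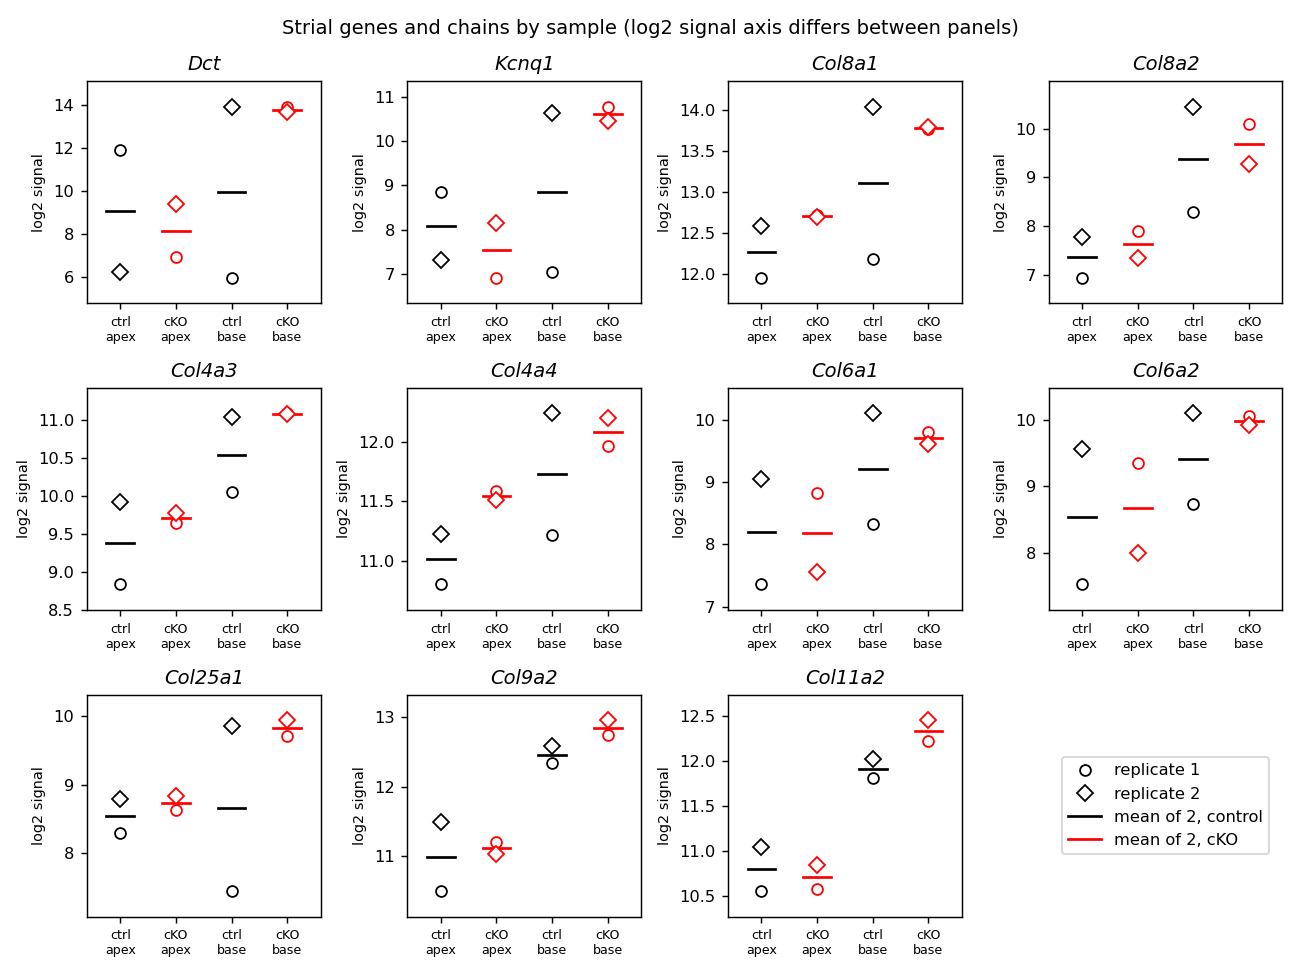
Log2 signal (y axis, a different range in each panel) of the strial genes Dct and Kcnq1 and 9 collagen chains in the 4 groups, with 1 point per sample and a bar at the mean of 2. Circles are replicate 1 and diamonds replicate 2. In the circle of control base, Dct is at 5.96 and Col25a1 at 7.44, below every apical sample, while Col11a2 stays above every apical sample.

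Markers of other cell types were read in the same contrast, where 0.59% of all genes were called higher and 0.598% lower. The difference was above 0 for 47.4% of all genes. Of the cartilage cell list, 2 of 7 were called higher (1 of 7 after quantile normalization or centring on the 75th percentile), Chad, a cartilage adhesion protein (1.35 ± 0.11, adjusted p = 0.0141), and Ucma, a secreted cartilage protein (0.66 ± 0.11, adjusted p = 0.0431). In that list 6 of 7 differences were above 0, and Hapln1 went the other way (-0.72 ± 0.45, and -1.31 without control base replicate 1). The summed signal of the list was 29810 to 37080 in the apex and 44380 to 49710 in the base, and its members Matn1 and Matn3 lay under the filter. Bone genes were above 0 in 8 of 8, with Phex, a phosphate regulator of bone cells (1.33 ± 0.16, adjusted p = 0.0197), and Dmp1, an osteocyte matrix protein (0.67 ± 0.11, adjusted p = 0.0455), past the threshold. Their summed signal was 15430 to 20840 in the apex and 26390 to 38080 in the base. Strial genes had 7 of 8 differences above 0 and 0 called, with a median of 1.50, which was 0.51 in controls and 2.53 in cKO mice. The 2 control basal samples were unlike. The summed strial signal was 19920 in replicate 1 and 52120 in replicate 2, the latter within the cKO base range of 48350 to 54540. Endothelial and pericyte genes had a median of 0.55 with 1 of 6 called (0 of 6 after quantile normalization or centring), and spiral ligament fibrocyte genes 0.29 with 0 of 7 called. Hair cell genes went the other way (median -1.46, 0 of 4 above 0, 1 called lower, summed signal 1510 to 1961 in the apex and 494 to 1048 in the base). Supporting cell genes were mixed (median -1.05, 2 of 7 called lower, 2 of 7 above 0, summed signal 33140 to 39170 in the apex and 30750 to 39870 in the base). The 2 above 0 were Gjb2 (0.29 ± 0.14), which is also on the fibrocyte list, and Gjb6 (0.24 ± 0.09). They were the brightest of the list, with mean apical log2 signals of 13.71 and 13.72, and the rest were below 0. Neuron genes had 0 of 6 above 0 and 0 called, with a median of -0.32, and their summed signal was 58720 in control base replicate 1 and 19340 in control base replicate 2. Control base replicate 1 was singled out by its low strial signal, so a larger strial difference without it was fixed by that choice. Without this sample the strial median was 2.12. The median was then 1.00 for bone (0.86 with the sample) and 0.50 for cartilage cell genes (0.66 with it). It was 0.66 for endothelial and pericyte, 0.43 for fibrocyte, -1.46 for hair cell, -0.88 for supporting cell and -0.69 for neuron genes. The part of these cell types in the collagen differences was not tested.

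The genes that make, trim and bind collagen were read from set lists in the same contrast. Of the enzymes and chaperones that modify chains in the endoplasmic reticulum, 0 of 18 were called, and 18 of 18 differences were above 0 (17 of 18 after quantile normalization or centring on the 75th percentile), with a median of 0.39. Those of smallest p were the galactosyltransferase Colgalt2 (0.37 ± 0.10), the prolyl hydroxylase P3h3 (0.84 ± 0.24), the lysyl hydroxylase Plod1 (0.88 ± 0.25) and the prolyl isomerase Fkbp14 (0.47 ± 0.15), with adjusted p from 0.127 to 0.172. Of the trimming and crosslinking genes, 1 of 7 was called. It was Pcolce2, which enhances removal of the C-terminal propeptide, at 11.20 and 11.58 in control apex, 12.03 and 12.20 in cKO apex, 12.69 and 12.65 in control base, and 13.02 and 12.78 in cKO base (1.04 ± 0.12, adjusted p = 0.0180), without overlap of the regions. The lysyl oxidase relative Loxl1 gave 1.15 ± 0.42, with control base replicate 1 at 10.24, within the apical range, and 1.66 without that sample.

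Among proteins that coat fibrils, 1 of 15 was called and 7 of 15 differences were above 0 (median -0.02). The called gene was Bgn, the proteoglycan biglycan, at 10.66 and 10.85 in control apex, 10.76 and 10.38 in cKO apex, 11.75 and 12.04 in control base, and 12.05 and 11.55 in cKO base (1.18 ± 0.16, adjusted p = 0.0292). Fibronectin, Fn1, gave -1.50 ± 0.32 (adjusted p = 0.0735). Of the laminins and other basement membrane partners 0 of 15 were called (median 0.18), the smallest p being that of the laminin chain Lamb3 (0.89 ± 0.19, adjusted p = 0.0712). Collagen receptors (0 of 6 called, median 0.19) and degrading enzymes with their inhibitors (0 of 11 called, median 0.41) had no member past the threshold.

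Of the regulators, 1 of 10 was called. It was Ccn2, a matricellular growth factor, at 11.90 and 11.84 in control apex, 11.63 and 11.79 in cKO apex, 12.44 and 13.14 in control base, and 13.11 and 12.93 in cKO base (1.12 ± 0.16, adjusted p = 0.0299). Sox9, the transcription factor that drives cartilage collagens, gave 0.98 ± 0.22 (adjusted p = 0.0826), its partner Sox6 -0.75 ± 0.20 (adjusted p = 0.128) and Sox5 0.14 ± 0.21. Without control base replicate 1 the median was 0.41 for modifying, 0.84 for trimming and crosslinking (0.61 with it) and 0.10 for fibril-coating genes. It was 0.16 for basement membrane partners, 0.21 for receptors, 0.64 for degradation genes and 0.69 for regulators (0.42 with that sample).

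The glycoproteins that share the tectorial membrane with types II, IX and XI collagen ran against the collagens. All 4 tested were below 0, and 2 were called lower in the base. Tectb, beta-tectorin, was at 12.52 and 13.44 in control apex, 13.28 and 13.48 in cKO apex, 5.71 and 7.93 in control base, and 6.38 and 8.71 in cKO base (-6.00 ± 0.62, adjusted p = 0.0164). Otog, otogelin, gave -1.40 ± 0.23 (adjusted p = 0.0450). Without control base replicate 1, all 4 were again below 0, with a median of -0.92.

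**Figure D4:**
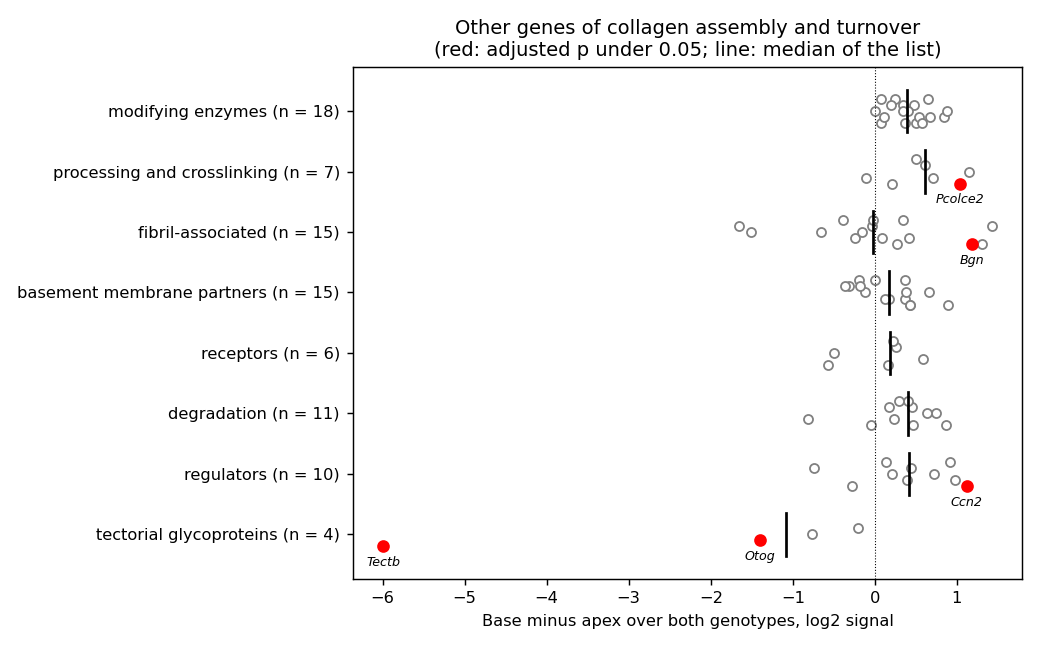
Base minus apex (log2 signal) over both genotypes for the members of the lists of genes that modify, trim, bind, degrade or regulate collagen and of the tectorial membrane glycoproteins, with 1 point per gene and a bar at each list's median. Genes with an adjusted p under 0.05 are filled and named: Pcolce2, Bgn and Ccn2 lie to the right of 0, and Tectb and Otog to the left.

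Within each genotype the same contrast had fewer samples. In controls 27 of 38 differences were above 0 (47.8% of all genes), but 0 of 38 chains and 0 of 13221 genes were called by limma (0.0%), with 12 chains higher and 1 lower at an unadjusted p under 0.05, where 3.84% and 3.68% of all genes were (7.52% in either direction). In cKO mice 32 of 38 were above 0 (47.1% of all genes), and 0 chains were among the 11 genes called (0.0832%, of which 0.0151% higher and 0.0681% lower), with 12 chains higher and 0 lower at an unadjusted p under 0.05, against 5.61% and 5.66%. Col11a2 gave 1.12 ± 0.21 in controls (adjusted p = 0.335) and 1.63 ± 0.21 in cKO mice (adjusted p = 0.0609). Col9a2 gave 1.47 ± 0.30 and 1.73 ± 0.30, and Col3a1 0.73 ± 0.14 and 0.76 ± 0.14, in the same order. All 6 cartilage chains were above 0 in both genotypes, with medians of 0.92 in controls and 0.82 in cKO mice. Without control base replicate 1, Col11a2 gave 1.23, Col9a2 1.59 and Col3a1 0.85 in controls. There 1 basal control sample remained and was assumed to vary like the other groups. The cKO samples and differences were unchanged, yet more chains passed in cKO mice. The same happened without control base replicate 2. Only the shared estimate of spread differed, so those calls are not listed.

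Whether the step from apex to base differed between genotypes was tested directly. No chain or gene passed (0 in limma, 0.0%), and at an unadjusted p under 0.05 there was 1 chain, Col5a3, where 1.13% of all genes were (0.552% with a larger and 0.575% with a smaller step in the cKO). The difference was above 0 for 28 of 38 chains and 49.5% of all genes. Col5a3, a type V chain, was at 8.21 and 8.29 in control apex, 7.77 and 7.48 in control base, 7.98 and 7.88 in cKO apex, and 7.93 and 8.41 in cKO base. It was thus lower in the base in both control mice and mixed in the cKO, and the difference of the differences was 0.86 ± 0.34 (unadjusted p = 0.0378, adjusted p = 1.00). Col11a2 gave 0.51 ± 0.29 and Col7a1, the anchoring fibril chain, 0.62 ± 0.43.

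The last comparison was between genotypes. Dicer1 itself was between 9.04 and 9.57 in the 4 control samples and between 9.06 and 9.41 in the 4 cKO samples (log2 signal), and where its probes lie relative to the floxed part is not known, so it does not check the genotype labels. Limma called 0 chains and 0 genes in the apex, in the base and over both regions (0.0% each), and 290, 413 and 319 genes (2.19%, 3.12% and 2.41%) had an unadjusted p under 0.05. The chains at that level were higher in the cKO: Col9a1 and Col2a1 in the apex (1.1% of all genes higher, 1.09% lower), Col5a1 in the base (1.64% and 1.48%), and Col9a1, Col5a1 and Col23a1 over both (1.33% and 1.08%). The adjusted p of every chain was 0.9998 within a region and 0.9989 over both regions.

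In the apex, Col9a1 gave 0.39 ± 0.13 (cKO minus control, log2, unadjusted p = 0.0217), both cKO samples lying above both control samples. Col2a1 gave 0.47 ± 0.20 (unadjusted p = 0.0477), with control apex replicate 1 the lowest sample by far, and Col1a2 0.22 ± 0.12. In the base, Col5a1, a type V chain that sets fibril diameter, was at 9.30 and 9.16 in controls and 9.91 and 9.96 in cKO mice, a difference of 0.71 ± 0.24 (unadjusted p = 0.0191). Col5a3 gave 0.54 ± 0.24 and Col9a1 0.28 ± 0.13 there. With 1 mean per presumed mouse over both regions, Col9a1 gave 0.33 ± 0.09, Col5a1 0.52 ± 0.16 and Col23a1 0.43 ± 0.16.

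Across the family, cKO minus control was above 0 for 29 of 38 chains in the apex and 34 of 38 in the base, where 50.1% and 49.8% of all genes were, with medians of 0.14 and 0.28 and none called. Over both regions it was above 0 for 31 of 38 chains and 49.7% of all genes. These medians moved with single control samples. Without control apex replicate 1 the apical median was -0.02, without control apex replicate 2 it was 0.39, and without control base replicate 1 the basal median was 0.15. The control samples numbered 1, presumed to come from 1 mouse, alone had a high signal of Xist, the transcript of the inactive X chromosome. It was 12.54 in the apex, 12.39 in the base, and at most 8.23 in the other 6 samples. Sex and genotype were therefore not balanced, and the part of sex in these values was not tested.

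**Figure D5:**
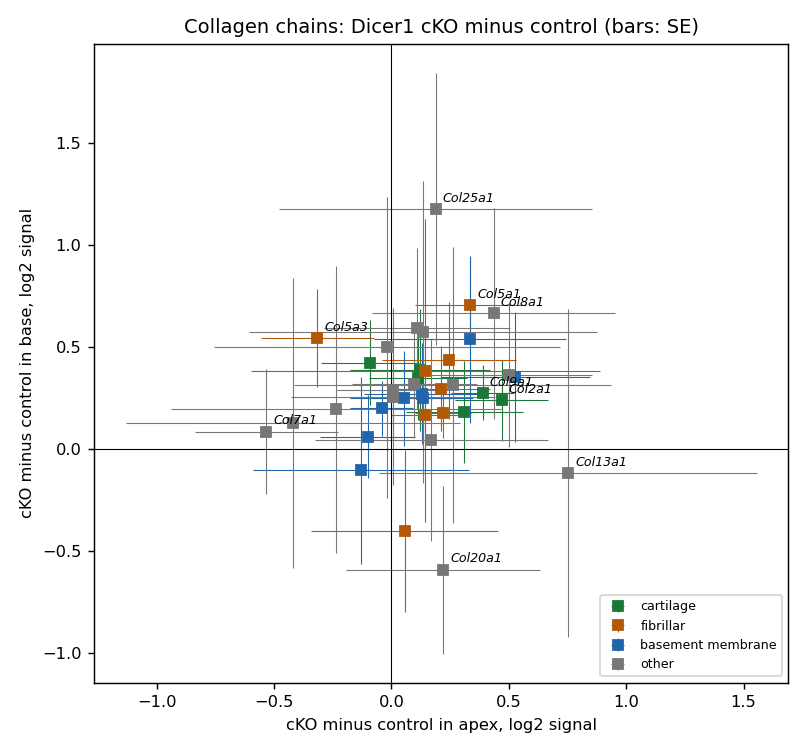
cKO minus control (log2 signal) for the 38 tested chains in the apex (x axis) and in the base (y axis), coloured by class, with bars of ± SE from limma. Most points lie above 0 on both axes, Col5a1 reaches 0.71 in the base, and no chain had an adjusted p under 0.05.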

How the data were processed

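Gene expression was measured on 1 array per sample; per the labels' protocols, the RNA input was 75 to 125 ng, labelled in 2 cycles. The file deposited by the authors holds a linear intensity for each probe set, scaled to a trimmed mean of 500 with 2% off each end, as the values show. The submitters' processing notes name MAS5 and affy 1.26 without their role. Of 45101 probe sets, 34945 were assigned to 1 gene by the supplied annotation, 932 to several and 9160 to none, and 34741 were matched by Entrez identifier. No collagen probe set was shared with another gene.

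A gene's value was that of its probe set with the highest mean, and probe sets under the 40th percentile (log2 5.27) were not tested, leaving 13221 of 18193 genes. With limma 3.58.1 on R 4.3.3, the log2 values of all 8 samples were fitted to the 4 group means, with an intensity trend (4 residual and 3.46 prior degrees of freedom). Differences over both regions used 1 mean per presumed mouse. Tests were two-sided, adjusted by Benjamini-Hochberg over all genes, with a threshold of 0.05. Standard errors come from the moderated fit.

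Pairing is presumed from the series' design text, which ties a replicate to 1 mouse but does not say that regions of 1 number share it; deviations from group means correlated between apex and base of 1 number at r = 0.339 in controls and 0.0683 in cKO mice, across genes, which are not replicates. The members, classes, lists and alternatives were chosen with earlier results of these data known. Chains were named if they passed the threshold, had the smallest 4 p in their class or 3 smallest in a genotype contrast, or stood on a set list; the others were given as values. The fit was tested on simulated data. Promoter windows come from RefSeq.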

Additional observations from a re-analysis of the deposited data

How the results depend on the processing

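Between base and apex over both genotypes, the median difference of all chains and of each class stayed above 0 in all 17 alternatives that gave one, at 0.44 to 0.58 for all chains 0.71 to 0.96 for cartilage, 0.33 to 0.50 for fibrillar, 0.14 to 0.44 for basement membrane and 0.15 to 0.49 for the further chains. The basement membrane median was 0.14 with the filter at the 60th percentile and 0.21 without control base replicate 1. That of the further chains was 0.15 without cKO apex replicate 2, 0.49 without control apex replicate 2, 0.46 without control base replicate 1, 0.36 with the filter at the 60th percentile and 0.43 with the mean of probe sets. Which chains passed depended on the variance model and on single samples. Every fit without 1 sample left 1 in its group, so its counts show only this dependence. More chains passed without either control basal sample. The number of genes called was 98 when all probe sets of a gene were averaged, 70 without the intensity trend and 255 with the replicate block, and chains called higher numbered 1 without the trend (Col11a2) and 8 with the block. Col2a1 also passed with the filter at the 60th percentile, a pseudocount of 16, centring on the 75th percentile or low values raised to the filter. Leaving out 1 sample gave 0 to 1518 genes, 0 to 14 chains higher and 0 to 1 lower. Among the chains named for this contrast, Col4a5 alone changed sign: 0.048 with the mean of its probe sets and -0.15 to 0.15 without single samples. Chains given only as values were not all stable in sign. Without control base replicate 1, Col13a1 gave 0.43 and Col19a1 gave -0.50.

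In controls, leaving out 1 sample gave 0 to 551 genes, 0 to 8 chains higher and 0 to 1 lower. In cKO mice, 11 genes became 0 with no filter, quantile normalization, no trend, the replicate block or every probe set fitted on its own (an alternative chosen after seeing the data), 6 with the mean of probe sets and 449, with 8 chains higher, when only the cKO samples were fitted; leaving out 1 sample gave 0 to 316 genes and 0 to 6 chains. The 449 genes called in the fit of only the cKO samples were among 13221 tested, counted in either direction. Without the trend, 1 gene differed between genotypes in the apex and 1 in the base. Leaving out 1 sample gave 0 to 37 genes in the base, with Col25a1 (2.39) called without control base replicate 2, and 0 to 9 over both regions; with 1 control sample left, these counts cannot be read as genotype effects. The replicate block moved no other count of chains. The causes were not tested. Numbers across genotypes only share a label, and their deviations correlated at -0.03 in the apex and 0.18 in the base. The basal value was above the 0.0683 between apex and base of cKO mice, so these correlations do not settle the presumed pairing. The number of arrays limits every result, and signals under the filter give no direction.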
